A study of Homo sapiens with 60 samples.

Results

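Expression of 7 genes of glucocorticoid signalling was followed in HT29 cells given herbal extracts, with licorice (Glycyrrhiza) as the main interest. They are HSD11B2, which encodes the enzyme that inactivates cortisol, NR3C1, which encodes the glucocorticoid receptor, and 5 textbook targets of that receptor: KLF9, TSC22D3, FKBP5, PER1 and SGK1. The genes were chosen by name, with earlier results of these data known. How many of them pass a test is therefore a description only. All 7 were found among the 60675 genes of the count table by mapping their symbols to Ensembl identifiers. Of these, 6 passed the filter on low counts and were tested among 16445 genes. NR3C1 did not pass.

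Cortisol crosses the cell membrane and binds the glucocorticoid receptor, which then enters the nucleus and raises or lowers transcription of its target genes. The enzyme encoded by HSD11B2 oxidises cortisol to cortisone, which does not activate the receptor. In kidney tubules and colon epithelium it leaves the mineralocorticoid receptor to aldosterone, the hormone of sodium uptake. Glycyrrhetinic acid, a product of licorice, is a known inhibitor of this enzyme, and heavy licorice use is known to cause sodium retention with high blood pressure. By their traditional recipes Palmul-tang and Sibjeondaebo-tang also contain licorice.

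HT29 is a line from a human colorectal adenocarcinoma. The cells were kept in medium with heat-inactivated fetal bovine serum and read after 24 h by strand-specific RNA sequencing, which gave 60 libraries in 22 groups. Vehicle had 3 libraries. It is given as 0.1% DMSO in the sample labels and as 2% DMSO in the series text. Water extracts of the herbal formulas Palmul-tang and Sibjeondaebo-tang and ethanol extracts of Poria, Atractylodes and Ginseng had 3 libraries each at 500, 100 and 20 µg/mL. The ethanol extract of Glycyrrhiza had 3 libraries each at 350, 70 and 14 µg/mL, and that of Angelica 1 library each at 320, 64 and 12.8 µg/mL. Per the series text an extract whose IC20, a mildly inhibitory concentration, fell under 500 µg/mL was given at that IC20 and at 2 dilutions of it. These doses are called high, medium and low, and high is 25 times low throughout. No group given a glucocorticoid was analysed here, and what was measured is RNA, not enzyme activity or cortisol. The labels do not say whether replicates were separate cultures, and a p-value here sets a difference against library-to-library variation that may be purely technical.

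Library totals ran from 19.31 M to 29.62 M counts, with a median of 25.06 M. The 12 colon epithelial markers, among them EPCAM, CDH1, KRT20 and VIL1, summed to between 11500 and 13700 CPM (counts scaled to library size) in the vehicle, Glycyrrhiza and high dose Ginseng libraries. The 14 markers of immune, stromal, endothelial, liver, neuroendocrine and glial cells summed to 8.98 to 11.9 CPM there. The largest parts of the epithelial sum were the keratins KRT8 and KRT18, with medians of 6890 and 4010 CPM over the 57 tested libraries. CDX2, GPA33 and CDX1 of the same list were low, at medians of 4.57, 3.76 and 0.919 CPM. CD14, from the list of other cell types, had a median of 3.55 CPM. On the first principal component the 3 high dose Glycyrrhiza libraries lay at 28.52 to 29.5 and the other 54 tested libraries between -7.04 and 5.25. Sample names put Palmul-tang and Sibjeondaebo-tang in one set, Poria and Atractylodes in another, Glycyrrhiza and Ginseng in a further one, and Angelica in a set of its own. All library titles, vehicle included, name the same batch, BatchC. Vehicle carries no set number, so a difference from vehicle and a difference between sets cannot be told apart. The share of counts on mitochondrially encoded genes was 10.24% ± 1.36 (SD, n = 3) in vehicle and 6.83% to 8.83% in the means of the 18 treated groups. High against low dose of the same extract uses no vehicle library, and is the main comparison here.

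The transcript of the glucocorticoid receptor itself was close to absent. NR3C1 (ENSG00000113580, GRCh38 chromosome 5, 143277931 to 143435512, minus strand) had 0 to 2 counts in each library and 15 counts over all 60 libraries, with no count in 46 of them. No count was seen in any of the 9 Glycyrrhiza libraries. A count of 0 allows a level of up to 3 counts, which is 0.101 to 0.155 CPM in these libraries, counting error only. NR3C2, which encodes the mineralocorticoid receptor, was measured at 5.96 ± 0.471 CPM in vehicle and 6.44 ± 0.676 CPM at the low dose of Glycyrrhiza (SD, n = 3). At the high dose it was at 4.6 ± 0.514 CPM, a fall by 0.48 ± 0.11 on the log2 scale against the low dose (SE; adjusted p = 0.00055). HSD11B1, which encodes the enzyme that regenerates cortisol from cortisone, had at most 1 count in any library. H6PD, which supplies that enzyme with its cofactor, was at 38.3 ± 3.18 CPM at the low dose and fell by 0.21 ± 0.08 at the high dose (adjusted p = 0.035). That call was lost without high dose library 1 (adjusted p = 0.236) or 3 (0.11) or low dose library 2 (0.223). Against vehicle H6PD did not pass (-0.17 ± 0.08; adjusted p = 0.084).

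HSD11B2 (ENSG00000176387, chromosome 16, 67430652 to 67437553, plus strand) was lowest in the high dose Glycyrrhiza group. The 3 libraries at 350 µg/mL held 5.71, 5.13 and 4.89 CPM. The low dose libraries held 7.08, 8.28 and 7.12 CPM, the medium dose libraries 7.85, 7.31 and 8 CPM, and the vehicle libraries 8.54, 8.55 and 8.73 CPM. All 3 high dose values lay below every low dose, medium dose and vehicle value. In either direction 37.5% of all tested genes had no such overlap with the low dose and 43.2% none with vehicle. In bulk RNA fewer cells that express a gene and less RNA per cell cannot be told apart. Of the other 54 libraries 1 lay at or below the highest of the 3. Against the low dose HSD11B2 fell by 0.50 ± 0.10 on the log2 scale, to 0.705 times its level (SE; 95% interval -0.71 to -0.3; adjusted p = 0.00014). Against the medium dose it fell by 0.55 ± 0.10 (adjusted p = 3e-05), and against vehicle by 0.71 ± 0.10 (adjusted p = 2.2e-07). Between medium and low dose the log2 difference was 0.05 ± 0.10 (95% interval -0.14 to 0.24; adjusted p = 0.98). Of the steps between neighbouring doses only that from 70 to 350 µg/mL passed, and this interval does not exclude a smaller change below 70 µg/mL.

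With the other 5 extracts HSD11B2 passed no test between high and low dose. The group means at low, medium and high dose were 7.36 ± 0.529, 6.24 ± 0.138 and 8.19 ± 0.794 CPM with Palmul-tang, and 6.76 ± 0.779, 6.99 ± 0.191 and 6.39 ± 0.866 CPM with Sibjeondaebo-tang (SD, n = 3 each). They were 7.84 ± 0.596, 6.82 ± 0.435 and 8.07 ± 0.732 CPM with Poria, and 6.56 ± 0.146, 6.82 ± 0.391 and 7.64 ± 0.612 CPM with Atractylodes. With Ginseng they were 7.63 ± 0.365, 6.94 ± 1.04 and 7.68 ± 0.755 CPM. The means were thus not ordered by dose in most extracts. High against low dose estimates ran from -0.08 ± 0.10 with Sibjeondaebo-tang (95% interval -0.28 to 0.12) to 0.22 ± 0.10 with Atractylodes (95% interval 0.03 to 0.41; adjusted p = 0.23). Vehicle had the highest mean of the 19 groups and high dose Glycyrrhiza the lowest. In that order the libraries of neighbouring groups overlapped in 17 of 18 pairs, and the pair that did not overlap was medium dose Palmul-tang and high dose Glycyrrhiza.

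Among the 5 targets the promoter sequences are shown for those that carry the comparison: KLF9 and TSC22D3, which rose most with Glycyrrhiza, PER1, which rose less, and FKBP5, which did not pass the test. They come from RefSeq on GRCh38.p14, where 6 of the 7 genes have an entry, with 18 start sites in all. KLF9 and PER1 have 1 window each, FKBP5 has 2 and TSC22D3 has 4. The FKBP5 and TSC22D3 windows printed were chosen with their motif matches known, as the ones that hold an E-box and a FOXO site. Each line runs 5′ to 3′ on the minus strand, from 250 bases before a start site to the first base that any GENCODE 29 exon covers. Capitals mark matches to CACGTG (the E-box, bound by clock proteins), GTAAACA (a FOXO site) or TGACNNNGC (the antioxidant response element core) on either strand.
KLF9 chr9:70414658-70414907: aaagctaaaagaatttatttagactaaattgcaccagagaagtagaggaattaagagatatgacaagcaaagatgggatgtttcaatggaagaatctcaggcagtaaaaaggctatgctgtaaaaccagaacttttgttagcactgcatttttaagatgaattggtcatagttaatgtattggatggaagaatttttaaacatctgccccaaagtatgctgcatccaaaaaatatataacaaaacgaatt
TSC22D3 chrX:107717136-107717312: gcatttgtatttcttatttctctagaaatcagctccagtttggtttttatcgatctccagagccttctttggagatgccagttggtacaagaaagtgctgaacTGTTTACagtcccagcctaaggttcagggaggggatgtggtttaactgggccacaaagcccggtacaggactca
PER1 chr17:8152436-8152654: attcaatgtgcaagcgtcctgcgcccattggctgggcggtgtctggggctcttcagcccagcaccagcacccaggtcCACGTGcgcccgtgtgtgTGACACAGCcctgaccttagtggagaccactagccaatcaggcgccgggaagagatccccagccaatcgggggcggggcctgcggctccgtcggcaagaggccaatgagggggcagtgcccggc
FKBP5 chr6:35688943-35689165: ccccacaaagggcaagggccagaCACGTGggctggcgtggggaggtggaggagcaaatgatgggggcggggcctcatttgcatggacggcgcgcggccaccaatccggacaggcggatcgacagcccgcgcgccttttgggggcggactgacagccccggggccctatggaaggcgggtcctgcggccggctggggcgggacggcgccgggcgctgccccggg

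The E-box stood in the PER1 window and in 1 of the 2 FKBP5 windows, at positions -173 and -227 from the start site, and was found in 6.34% of 35116 promoter windows of 250 bases. TGACNNNGC, found in 10.9% of windows, stood in PER1 at -155. GTAAACA, found in 2.98% of windows, stood in 1 of the 4 TSC22D3 windows, at -147 on the other strand, and the KLF9 window held none of these motifs. The TSC22D3 window nearer the start, inside an annotated exon and not printed, also held TGACG (the cAMP response element core) at -60 and -50, and the latter overlapped a match to TGACNNNGC. TGACG was found in 21.2% of windows and in 1 more TSC22D3 window, at -123 on the other strand, while the remaining 2 held none of these motifs. Of the other windows of the 18, the 3 of SGK1 and the second of FKBP5 also held none. GTAAACA stood in an NR3C1 window too, at -59, and TGACG stood in NR3C1 windows at -15 and -110, all on the other strand. The palindromic glucocorticoid response element and its hexamer AGAACA, found in 0.0114% and 12.4% of windows, were in none of the 18 member windows, which says only that these letters are not there. A match is a description of letters, not of binding.

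KLF9 (ENSG00000119138, chromosome 9, 70384597 to 70414624), which encodes a zinc finger transcription factor of the Krüppel-like family, rose with high dose Glycyrrhiza. The high dose libraries held 5.71, 6.66 and 5.63 CPM. Those of the low dose held 3.86, 3.58 and 3.95 CPM, of the medium dose 3.15, 3.36 and 3.42 CPM, and of vehicle 2.83, 2.75 and 3.49 CPM. The 3 high dose values lay above all other 54 libraries, which ran from 2.75 to 4.84 CPM, as did those of 6.99% of tested genes. The rise was 0.65 ± 0.13 on the log2 scale against the low dose, or 1.57-fold (SE; adjusted p = 0.00016). It was 0.85 ± 0.14 against the medium dose (adjusted p = 2.4e-06) and 0.99 ± 0.14 against vehicle (adjusted p = 2.4e-07). KLF9 had 54 to 139 counts per library, the fewest of the tested members.

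TSC22D3 (ENSG00000157514, chromosome X, 107713221 to 107777342) encodes GILZ, an anti-inflammatory leucine zipper protein. It stood further outside the spread than KLF9. Its high dose Glycyrrhiza libraries held 28.9, 28.4 and 28.1 CPM. The low dose libraries held 19.5, 20.4 and 18.3 CPM, the medium dose libraries 17.2, 17.2 and 17.7 CPM, and the vehicle libraries 18.3, 18.4 and 18.6 CPM. The other 54 libraries lay between 15.3 and 20.9 CPM, so the 3 high dose values lay above all of them, as did those of 6.99% of tested genes. TSC22D3 rose by 0.56 ± 0.06 against the low dose, or 1.47-fold (adjusted p = 7.5e-11), by 0.71 ± 0.06 against the medium dose (adjusted p = 8e-14) and by 0.63 ± 0.06 against vehicle (adjusted p = 5.1e-12).

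**Figure D1:**
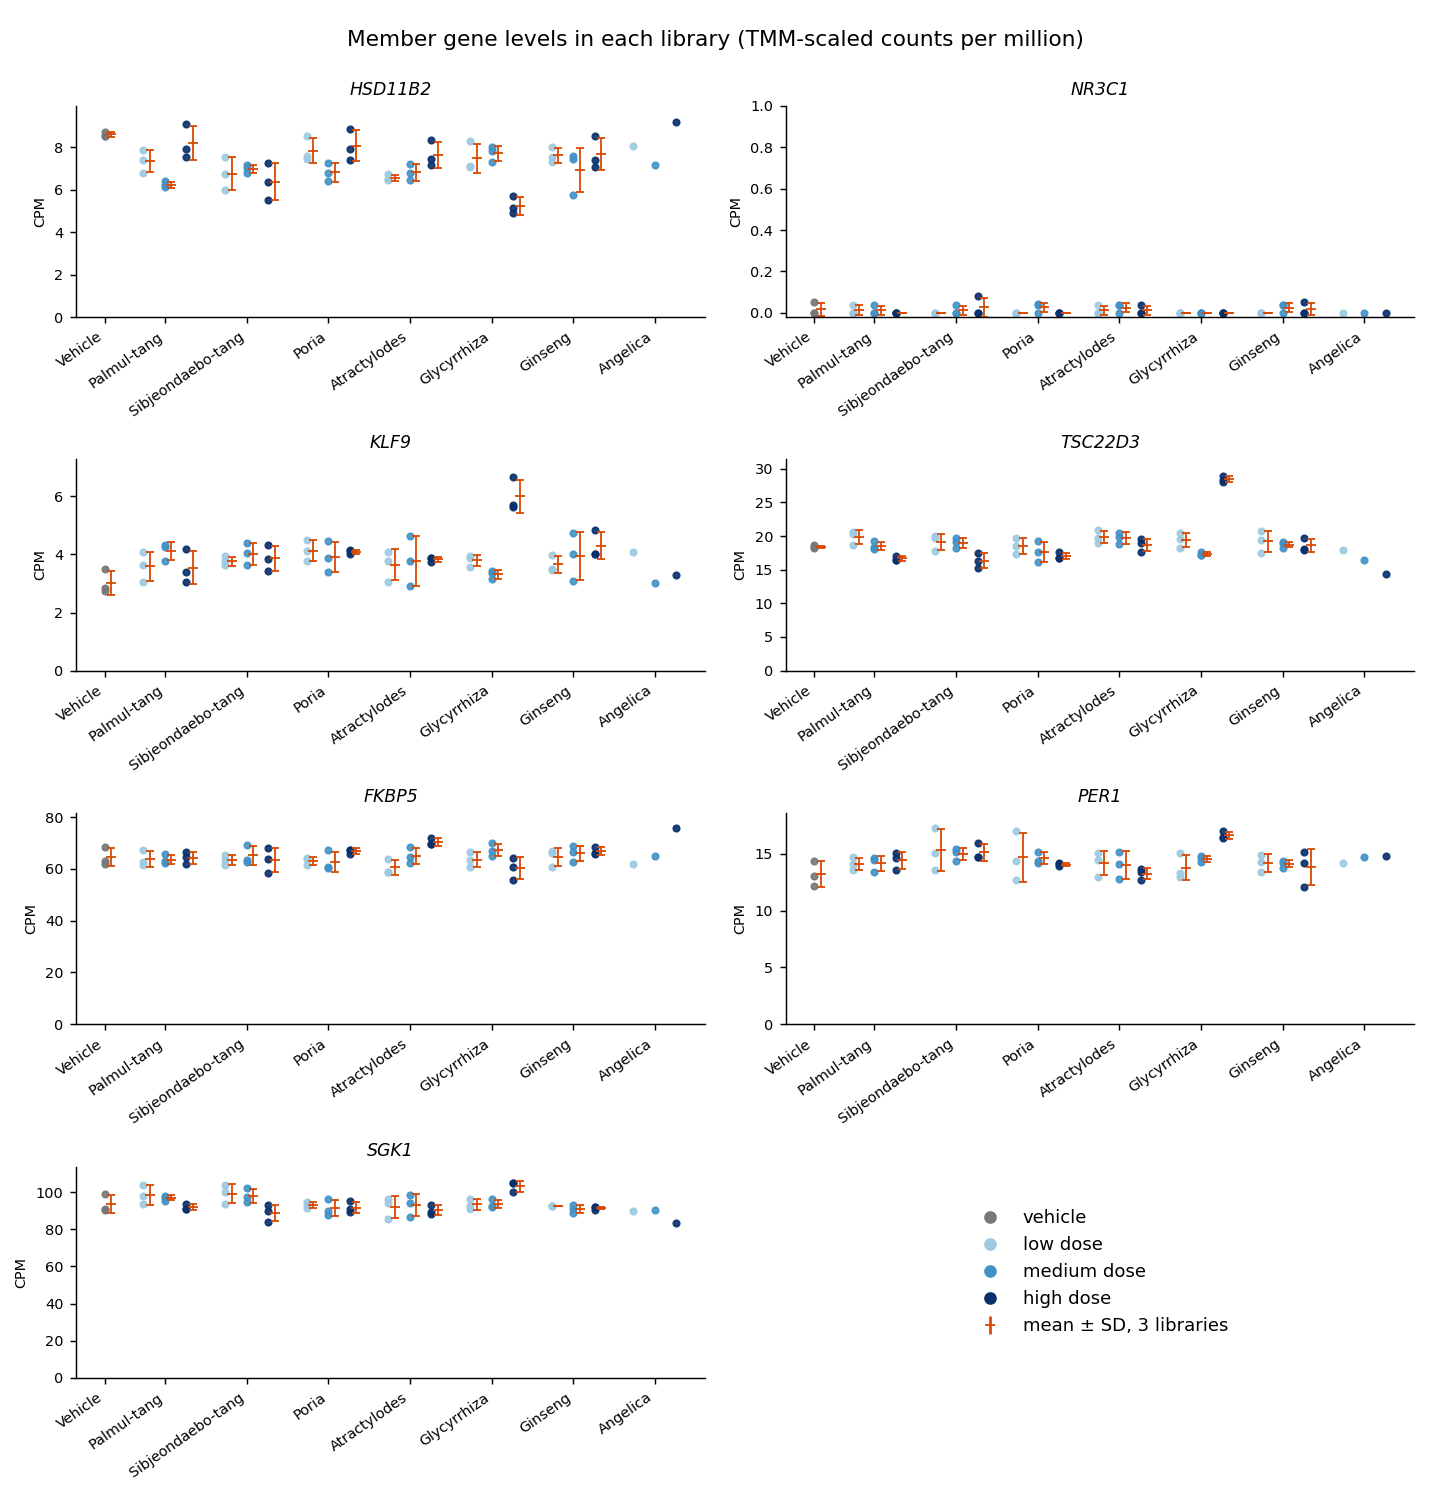
Level of each of the 7 genes (vertical axes, CPM scaled with TMM factors; the NR3C1 axis ends at 1) in every library by extract (horizontal axes); points are libraries, coloured by dose, and orange marks are the mean and SD of 3 libraries, with Angelica at 1 library a dose. High dose Glycyrrhiza is lowest for HSD11B2 by mean (5.24 CPM) and above every other library for KLF9 and TSC22D3, while NR3C1 is at or near 0 everywhere.

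PER1 (ENSG00000179094, chromosome 17, 8140472 to 8156506), a repressor in the circadian clock that glucocorticoids induce, was at 16.5, 17 and 16.4 CPM in the high dose Glycyrrhiza libraries. The low dose libraries held 15.1, 13 and 13.3 CPM, the medium dose libraries 14.3, 14.6 and 14.8 CPM, and the vehicle libraries 12.2, 13.1 and 14.4 CPM. The high dose values overlapped none of these, but 2 of the other 54 libraries reached the lowest of them. Of all tested genes 37.5% did not overlap the low dose and 43.2% did not overlap vehicle, in either direction. PER1 rose by 0.27 ± 0.08 against the low dose (adjusted p = 0.012) and by 0.33 ± 0.08 against vehicle (adjusted p = 0.0016). Against the medium dose the estimate was 0.19 ± 0.08 (adjusted p = 0.075). Without low dose library 2 or 3 the call against the low dose was lost (adjusted p = 0.0667 and 0.0607).

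SGK1 (ENSG00000118515, chromosome 6, 134169246 to 134318112), a kinase that keeps epithelial sodium channels at the cell surface and answers to both cortisol and aldosterone, moved little. It was at 99.9, 105 and 105 CPM in the high dose Glycyrrhiza libraries. The low dose libraries held 96.5, 91 and 92.7 CPM, the medium dose libraries 96.3, 92.1 and 92.4 CPM, and the vehicle libraries 91.1, 99 and 90.4 CPM. The high dose values lay above all of these, and 4 of the other 54 libraries reached the lowest of them. As given for PER1, 37.5% of all tested genes did not overlap the low dose and 43.2% did not overlap vehicle. SGK1 rose by 0.14 ± 0.05 against the low dose, or 1.1-fold (adjusted p = 0.017). This call was lost without high dose library 2 (adjusted p = 0.0709) or 3 (0.0667), or without low dose library 2 (0.0858) or 3 (0.0588). Against vehicle the rise was also 0.14 ± 0.05 (adjusted p = 0.013), and it was lost without vehicle library 1 (adjusted p = 0.0591) or 3 (0.091) or high dose library 2 (0.0558).

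FKBP5 (ENSG00000096060, chromosome 6, 35573585 to 35728583), a co-chaperone that lowers the receptor's affinity for cortisol and is often read as a marker of receptor activity, did not follow KLF9 and TSC22D3. The high dose Glycyrrhiza libraries held 64.4, 55.8 and 60.7 CPM, and the low dose libraries 66.6, 63.3 and 60.8 CPM. Medium dose libraries held 70, 66.9 and 65.1 CPM and vehicle libraries 63.1, 68.4 and 61.8 CPM. The high dose values overlapped those of the low dose and of vehicle, and their group had the lowest of the 19 means. The difference from the low dose was -0.075 ± 0.054 (95% interval -0.18 to 0.03; adjusted p = 0.35), and from vehicle -0.094 ± 0.054 (95% interval -0.2 to 0.02; adjusted p = 0.19). Against the medium dose FKBP5 fell by 0.16 ± 0.05 (adjusted p = 0.026). That call was lost without medium dose library 1 (adjusted p = 0.141) or 2 (0.0524), or without high dose library 2 (0.214) or 3 (0.0577).

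Between high and low dose of Glycyrrhiza 4 of the 6 tested genes rose (KLF9, TSC22D3, PER1, SGK1), 1 fell (HSD11B2) and 1 did not pass (FKBP5). Of all tested genes 24.9% were called in this comparison, 14% higher and 10.9% lower, and the median log2 change over all of them was -0.01. Against vehicle the same split was found with the same 5 genes called, beside 34.3% of all genes. Between high and medium dose 5 of the 6 were called, with FKBP5 in place of PER1, beside 23.7% of all genes. The SGK1 call there was lost with no filter on low counts (adjusted p = 0.0637) and without library 2 or 3 of the high dose (0.0855 and 0.0685) or of the medium dose (0.0762 and 0.0659). Between medium and low dose none of the 6 and 0% of all genes were called. In these edgeR fits 1 of the 6 was at an unadjusted p below 0.05 there, TSC22D3 at a log2 difference of -0.15 ± 0.06 (adjusted p = 0.77), and DESeq2 called 0 of the 6 and 2 genes in all. The 3 high dose libraries overlapped none of the low dose libraries for 37.5% of all tested genes, none of the vehicle libraries for 43.2%, and none of the other 54 libraries for 10.3%.

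Per kilobase of exon the members differed in level. Over the 57 tested libraries the mean was 9.4 RPKM (CPM per kilobase of annotated exon) for SGK1, 6.07 for FKBP5, 3.99 for TSC22D3, 2.7 for HSD11B2, 2.05 for PER1 and 0.756 for KLF9. NR3C1 stood at 0.00116 RPKM. On this scale SGK1 and FKBP5, the members with the most RNA, were among those that changed least with Glycyrrhiza, and KLF9, the lowest of the tested members, changed most.

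The same dose comparison in the other 5 extracts called 1 member in 1 extract. FKBP5 rose by 0.21 ± 0.05 (adjusted p = 0.0091) between 20 and 500 µg/mL Atractylodes, from a mean of 60.6 ± 2.82 to 70.4 ± 1.44 CPM (SD, n = 3), in a comparison that called 3.95% of all genes. This call was lost without high dose library 1 (adjusted p = 0.0638) or without low dose library 2 (0.0682) or 3 (0.068). With edgeR no member was called with Palmul-tang (0.152% of all genes), Sibjeondaebo-tang (0.371%), Poria (1.85%) or Ginseng (2.52%). The members at an unadjusted p below 0.05 were 2, 2, 1 and 0 in that order, and DESeq2 called 1, SGK1 with Sibjeondaebo-tang. KLF9 ran from 3.59 ± 0.51 to 3.54 ± 0.569 CPM with Palmul-tang and from 3.65 ± 0.286 to 4.3 ± 0.471 CPM with Ginseng, the widest such difference outside Glycyrrhiza (0.24 ± 0.14 on the log2 scale; adjusted p = 0.5). The TSC22D3 estimate was below 0 in all 5 other extracts, where it rose with Glycyrrhiza. It was -0.12 ± 0.06 with Poria, -0.09 ± 0.06 with Atractylodes and -0.06 ± 0.06 with Ginseng (adjusted p = 0.37, 0.53 and 0.78). TSC22D3 had its largest such differences with the 2 decoctions. It went from 19.9 ± 1.03 to 16.7 ± 0.347 CPM with Palmul-tang (-0.25 ± 0.06; adjusted p = 0.069) and from 19.2 ± 1.2 to 16.3 ± 1.11 CPM with Sibjeondaebo-tang (-0.23 ± 0.06; adjusted p = 0.085), and neither passed the test. Both passed with the replicate number as a block (adjusted p = 0.0262 and 0.0453) and once the mitochondrial share entered as a covariate (0.0278 and 0.0436). The first also passed without 3 libraries that stood apart on the third principal component (0.0404), and the second without high dose Sibjeondaebo-tang library 1 (0.0443).

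**Figure D2:**
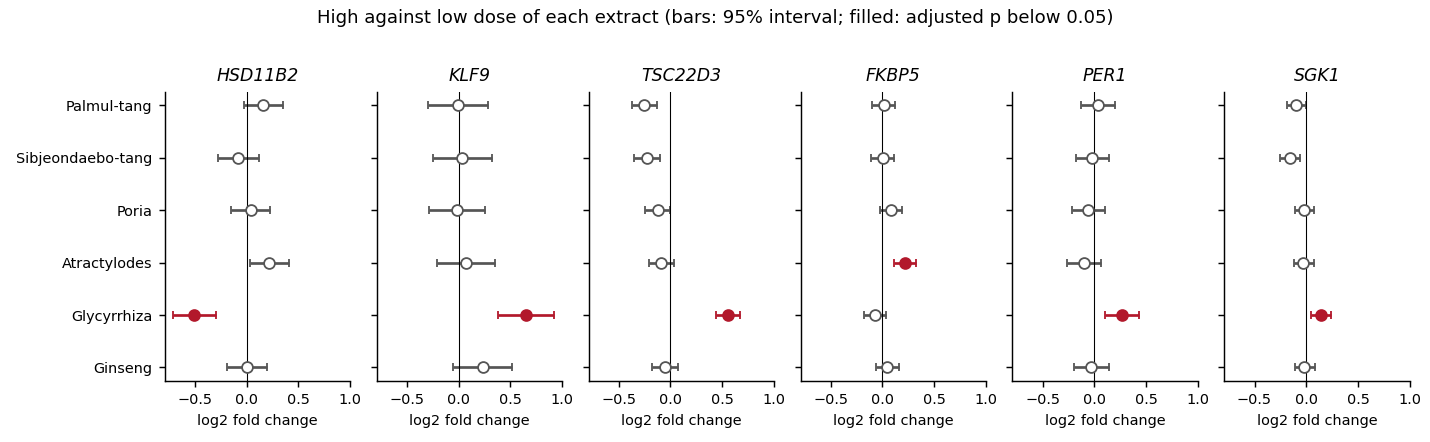
Log2 fold change between high and low dose (horizontal axes) of each tested gene for the 6 extracts with replicates (rows); bars are 95% intervals of the fit over 57 libraries, and filled red points passed an adjusted p of 0.05. Glycyrrhiza is filled in 5 of 6 panels, and FKBP5 with Atractylodes is the other filled point.

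Whether the dose change with Glycyrrhiza differed from that of the other extracts was tested directly. Against Palmul-tang, Sibjeondaebo-tang, Poria and Atractylodes 4, 4, 4 and 5 of the 6 differed, beside 15.1%, 14.8%, 14.9% and 13.2% of all genes. Against the mean dose change of the 5 other extracts it differed for 5 of the 6 tested genes, in a comparison that called 21.5% of all genes. The difference was -0.57 ± 0.11 for HSD11B2 (adjusted p = 9.1e-05), 0.59 ± 0.15 for KLF9 (adjusted p = 0.0024) and 0.705 ± 0.064 for TSC22D3 (adjusted p = 2.2e-12), all on the log2 scale. PER1 differed by 0.30 ± 0.09 (adjusted p = 0.01), a call lost without low dose Glycyrrhiza library 2 (adjusted p = 0.0531), and SGK1 by 0.21 ± 0.05 (adjusted p = 0.0016). FKBP5 was at -0.15 ± 0.06 (95% interval -0.27 to -0.03; adjusted p = 0.069), and it passed without high dose Glycyrrhiza library 1 (0.0232), low dose Glycyrrhiza library 3 (0.0412) or high dose Sibjeondaebo-tang library 2 (0.0398). Against Ginseng alone, the extract of the same set, 12.9% of all genes were called and so were TSC22D3 (0.61 ± 0.09; adjusted p = 3.1e-07) and HSD11B2 (-0.51 ± 0.14; adjusted p = 0.011). Without high dose Ginseng library 2 the HSD11B2 call was lost (adjusted p = 0.0506). KLF9 was at 0.41 ± 0.20 (95% interval 0.02 to 0.81; adjusted p = 0.18), PER1 at 0.30 ± 0.12 (adjusted p = 0.089) and SGK1 at 0.16 ± 0.07 (adjusted p = 0.098) in that test. PER1 passed without low dose Glycyrrhiza library 1 (0.0424) or high dose Ginseng library 1 (0.0397). The high doses differ, 350 µg/mL of Glycyrrhiza against 500 µg/mL of the others. By the dose rule of the series text 350 µg/mL is the IC20 of Glycyrrhiza, while the others had no IC20 under 500 µg/mL. The kind of extract and the degree of inhibition cannot be told apart in these tests.

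Differences from vehicle at the high dose of the other extracts touched HSD11B2, KLF9 and TSC22D3. Those comparisons share the 3 vehicle libraries, whose mitochondrial share was the highest of all groups. HSD11B2 was lower than vehicle by 0.43 ± 0.10 with high dose Sibjeondaebo-tang (adjusted p = 0.00083), where 27.3% of all genes were called. TSC22D3 was lower there by 0.17 ± 0.06 (adjusted p = 0.038), but not with DESeq2 (adjusted p = 0.0573) or with those libraries alone (0.14), nor without vehicle library 1 (0.0759), 2 (0.0831) or 3 (0.101) or high dose library 2 (0.207) or 3 (0.0922). KLF9 was higher than vehicle by 0.51 ± 0.15 with Ginseng (adjusted p = 0.013; 18.8% of all genes called) and by 0.44 ± 0.15 with Poria (adjusted p = 0.022; 25% called). With the mitochondrial share as a covariate neither KLF9 call held (adjusted p = 0.151 for Ginseng and 0.324 for Poria). The Ginseng call was also lost without vehicle library 1 (adjusted p = 0.0516) or 2 (0.0688) or high dose library 2 (0.0835), and the Poria call without vehicle library 1 (0.0785) or 2 (0.1) or high dose library 2 (0.0563) or 3 (0.051). With edgeR no member was called with high dose Palmul-tang (21.7% of all genes) or Atractylodes (22.5%), where 1 and 2 were at an unadjusted p below 0.05 and DESeq2 called 0 in both. Without vehicle library 2 FKBP5 was called with Atractylodes.

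At the lower doses HSD11B2 was again called lower than vehicle in some groups, and KLF9 higher in fewer. Whether such counts exceed the shares of all genes called was not tested. Counting all 18 treated groups, high doses included, HSD11B2 was called lower than vehicle in 9 and higher in 0, and KLF9 higher in 6 and lower in 0. With no filter on low counts HSD11B2 was lower in 7 and KLF9 higher in 4. With only the libraries of each comparison these were 7 and 2, and with DESeq2 9 and 5. At medium and low dose the share of all genes called was 21.1% and 20.4% with Palmul-tang, 20.1% and 20% with Sibjeondaebo-tang, 20.6% and 18.5% with Poria, 20.7% and 22.4% with Atractylodes, 13.1% and 17.6% with Glycyrrhiza, and 10.2% and 13% with Ginseng. HSD11B2 was lower by 0.46 ± 0.10 with medium dose Palmul-tang (adjusted p = 0.00049), by 0.35 ± 0.10 with low dose Sibjeondaebo-tang (adjusted p = 0.0077) and by 0.39 ± 0.10 with low dose Atractylodes (adjusted p = 0.0023). KLF9 was higher by 0.45 ± 0.15 with medium dose Palmul-tang (adjusted p = 0.024) and with low dose Poria (adjusted p = 0.028). It also passed with medium dose Sibjeondaebo-tang, close to the threshold (adjusted p = 0.041), and in no other lower dose group. At the medium and low dose of Glycyrrhiza itself edgeR and DESeq2 called 0 of the 6 against vehicle, with 0 and 2 at an unadjusted p below 0.05. With the mitochondrial share as a covariate HSD11B2 was called lower in 3 groups, high dose Glycyrrhiza, high dose Sibjeondaebo-tang and medium dose Palmul-tang, and KLF9 was called higher in 1, high dose Glycyrrhiza. Several of these calls also rested on single libraries. The KLF9 calls with medium dose Palmul-tang and low dose Poria were lost without vehicle library 1 (adjusted p = 0.081 and 0.0895) or 2 (0.106 and 0.12), the former also without its own library 1 (0.0742) or 3 (0.075) and the latter without its own library 2 (0.0604) or 3 (0.112). The HSD11B2 call with low dose Sibjeondaebo-tang was lost without its own library 1 (adjusted p = 0.0781).

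Angelica, with 1 library per dose, has no replicate check and no test. At 12.8, 64 and 320 µg/mL HSD11B2 was at 8.05, 7.19 and 9.18 CPM beside 8.45 to 8.66 CPM in vehicle on the same scaling. KLF9 was at 4.08, 3 and 3.28 CPM, beside 2.72 to 3.46 CPM in vehicle. TSC22D3 was at 17.9, 16.5 and 14.3 CPM, all below the 18.2 to 18.4 CPM of vehicle, with the lowest value at the high dose. FKBP5 was at 61.8, 65.1 and 76 CPM, and the high dose value lay above the 61.3 to 67.8 CPM of vehicle. SGK1 at the high dose was at 83.5 CPM, under the 89.7 to 98.1 CPM of vehicle.

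Genes of the wider pathway were read from lists of receptor targets, cofactors, steroid metabolism, ion transport, clock genes and paralogs. These lists too were chosen with earlier results of these data known, so their shares beside all genes are descriptions. Of 37 other glucocorticoid receptor targets 29 were tested. Between high and low dose of Glycyrrhiza 15 of them rose, 6 fell and 8 did not pass, with a median log2 change of 0.36 beside -0.01 over all genes, and 72.4% of the list called beside 24.9% of all genes. Against vehicle the counts were the same and the median was 0.2. PDK4, a brake on glucose oxidation, rose by 1.11 ± 0.10 from 5.98 ± 0.33 to 12.9 ± 1.27 CPM (adjusted p = 6.3e-13), and CDKN1A, the cell cycle inhibitor p21, by 0.91 ± 0.08 from 15.4 ± 1.1 to 29 ± 0.379 CPM (adjusted p = 4.8e-13). SERPINA3, a secreted protease inhibitor, rose by 2.62 ± 0.79 (adjusted p = 0.01) from 0.196 ± 0.167 to 1.32 ± 0.737 CPM, near the detection limit. The falls were led by METTL7A (-0.999 ± 0.171; adjusted p = 8.3e-06), CRISPLD2, which encodes a secreted protein (-0.91 ± 0.18; adjusted p = 9.5e-05), and the metallothionein gene MT1X (-0.70 ± 0.23; adjusted p = 0.019). Several genes of this list answer to other signals too, among them CDKN1A and PDK4, the latter to fatty acid receptors. Which signal moved them here was not tested. The SERPINA3 call was lost without library 2 of the high (adjusted p = 0.0736) or low dose (0.0546), and the MT1X call without library 1 of the high (0.227) or low dose (0.0874). In the same comparison of the other extracts edgeR called 0 of the 29 with either decoction, where 3 with Palmul-tang and 5 with Sibjeondaebo-tang were at an unadjusted p below 0.05. It called 4 with Poria (13.8% of the list beside 1.85% of all genes), 5 with Atractylodes (17.2% beside 3.95%) and 6 with Ginseng (20.7% beside 2.52%). Whether these counts differ between extracts was not tested.

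Receptor chaperones and cofactors moved in both directions. Of 23 tested genes 3 rose, 4 fell and 16 did not pass, which is 30.4% called beside 24.9% of all genes, with a median of 0. Against vehicle 2 were higher and 8 lower, 43.5% beside 34.3% of all genes. NRIP1, a nuclear receptor corepressor, rose by 0.30 ± 0.05 (adjusted p = 3.2e-06) and NCOA3, a coactivator, by 0.26 ± 0.04 (adjusted p = 1.1e-05). Against vehicle NCOA3 did not pass (0.07 ± 0.05; adjusted p = 0.23). SMARCA4, a chromatin remodelling ATPase, fell by 0.20 ± 0.04 (adjusted p = 7.2e-05), and HSPA8, a constitutive chaperone, by 0.115 ± 0.034 (adjusted p = 0.008). The HSPA8 call was lost without low dose library 1 (0.0607) or high dose library 2 (0.14). Of this list 4 genes were called with no filter on low counts and 3 without high dose library 2.

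In the list of cortisol metabolism and steroid receptors 11 of 23 genes were tested, of which 5 rose and 2 fell (63.6% called beside 24.9% of all genes; median 0.14). Against vehicle 4 were higher and 1 lower, with a median of -0.11, so the median changed sign with the control used. PGR and ESR1, which encode the progesterone receptor and an estrogen receptor, had at most 4 counts in a library. CYP3A5, a cytochrome P450 that hydroxylates steroids and drugs, rose by 0.70 ± 0.04 from 104 ± 1.05 to 169 ± 2.17 CPM (adjusted p = 7e-18). HSD3B1, a dehydrogenase of steroid synthesis, rose by 1.02 ± 0.26 from 0.923 ± 0.21 to 1.86 ± 0.232 CPM (adjusted p = 0.0019). NR5A2, a nuclear receptor that drives steroid production in the gut epithelium, rose by 0.36 ± 0.07 (adjusted p = 0.00018). Its high dose mean of 12.4 CPM was close to the 12.1 CPM of vehicle, with 9.67 CPM at the low dose. Against vehicle NR5A2 did not pass (0.03 ± 0.07; adjusted p = 0.84). The genes that fell were NR3C2 and H6PD, with the values given above.

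Of the 19 genes of aldosterone-responsive ion transport 12 were tested, and 3 rose and 5 fell (66.7% called beside 24.9% of all genes; median -0.1). SCNN1A, the alpha subunit of the epithelial sodium channel, rose by 0.35 ± 0.04 from 219 ± 5.38 to 279 ± 6.93 CPM (adjusted p = 9.4e-09), while SCNN1B and SCNN1G, its other subunits, had at most 2 counts in a library. WNK1, a kinase of ion transport, rose by 0.21 ± 0.05 (adjusted p = 0.0019), but against vehicle it did not pass (-0.07 ± 0.05; adjusted p = 0.32). SLC12A2, the cotransporter that loads epithelial cells with chloride, fell by 0.83 ± 0.07 from 706 ± 51.4 to 398 ± 29.1 CPM (adjusted p = 2.3e-14). WNK4, a related kinase, fell by 0.72 ± 0.14 (adjusted p = 3.9e-05), and CFTR, the apical chloride channel, by 0.55 ± 0.05 from 163 ± 5.85 to 111 ± 1.75 CPM (adjusted p = 3.9e-12).

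Of 20 clock genes, all tested, 7 rose and 3 fell (50% called beside 24.9% of all genes), with a median of 0.05. The period genes did not move one way: PER2 fell by 0.34 ± 0.07 (adjusted p = 0.00012) and PER3 by 0.32 ± 0.12 (adjusted p = 0.044), while PER1 rose. The PER3 call was lost without any 1 of the 3 high dose libraries or of low dose libraries 2 and 3 (adjusted p = 0.0612 to 0.304). CRY2, a partner repressor, fell by 0.16 ± 0.06 (adjusted p = 0.048), a call lost with DESeq2 (0.0911) and without any 1 of the 3 high dose libraries or of low dose libraries 1 and 2 (0.0657 to 0.211). BHLHE41, a repressor that binds E-boxes, rose by 0.56 ± 0.04 from 194 ± 9.45 to 286 ± 7.16 CPM (adjusted p = 3.1e-16). NR1D2, which encodes the nuclear receptor REV-ERB beta, rose by 0.49 ± 0.08 (adjusted p = 6.6e-06), and NPAS2, a paralog of CLOCK, also by 0.49 ± 0.07 (adjusted p = 1e-07).

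Paralogs of the members were read as a comparison of near relatives. Of 26 tested, 11 rose and 2 fell (50% called beside 24.9% of all genes), with a median of 0.16. Against vehicle 38.5% were called beside 34.3% of all genes, with a median of 0.08. KLF4, a Krüppel-like factor of differentiated gut epithelium, rose by 0.78 ± 0.09 from 8.04 ± 0.528 to 13.8 ± 0.692 CPM (adjusted p = 1e-09). TSC22D1, the founding gene of the TSC22D3 family, rose by 0.54 ± 0.04 (adjusted p = 2.3e-16) and FKBP14 by 0.52 ± 0.08 (adjusted p = 2.4e-06). FKBP3 fell by 0.24 ± 0.06 (adjusted p = 0.0037) and FKBP9 by 0.18 ± 0.05 (adjusted p = 0.0015). Against vehicle FKBP9 did not pass (-0.03 ± 0.05; adjusted p = 0.63). KLF4 and TSC22D1 thus rose beside KLF9 and TSC22D3.

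**Figure D3:**
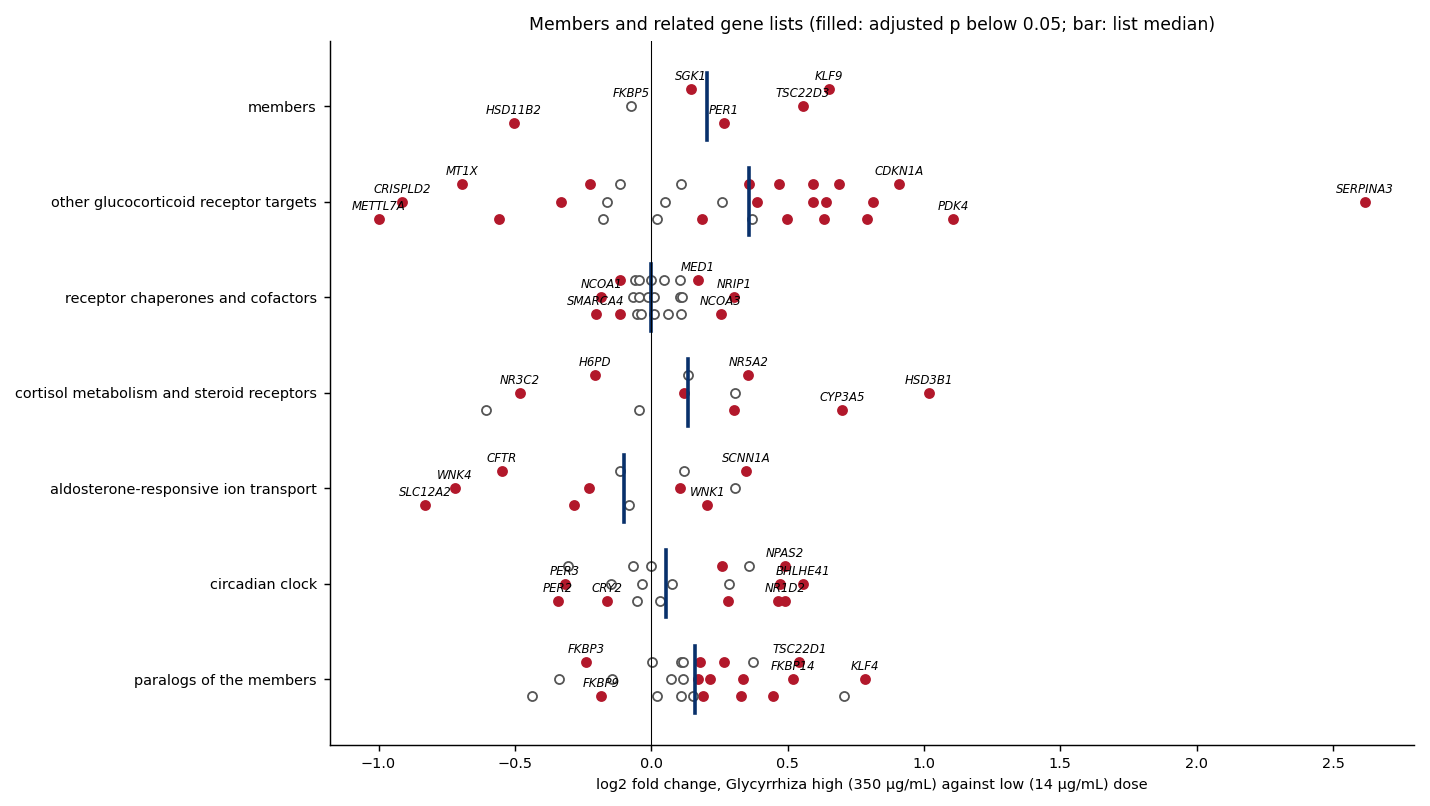
Log2 fold change between 350 and 14 µg/mL Glycyrrhiza (horizontal axis) for the tested genes of each list (rows); filled red points passed an adjusted p of 0.05, blue bars are list medians, and the named points are the members and the larger called changes of each list. The other receptor targets have the highest median (0.36), and their called genes lie on both sides of 0.

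The colon epithelial markers moved in the same comparison, and their part in the results above was not tested. Of 12 markers 3 rose and 3 fell (50% called beside 24.9% of all genes). KRT20, a keratin of differentiated colonocytes, rose by 0.78 ± 0.06 from 294 ± 14 to 506 ± 7.43 CPM (adjusted p = 4e-14), and CEACAM5 by 1.27 ± 0.11 (adjusted p = 3.5e-13). MUC13, a membrane mucin, fell by 0.87 ± 0.06 (adjusted p = 8e-16) and VIL1, the brush border protein villin, by 0.63 ± 0.04 (adjusted p = 2.5e-18). The mitochondrial share was 8.18% ± 0.49 at the high and 7.56% ± 0.52 at the low dose (SD, n = 3), and with this share as a covariate the same 5 members were called.

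Across the 19 group means the members did not vary as a block. Over all 19 groups Pearson's r of log2 levels was 0.69 between KLF9 and TSC22D3 and -0.69 between HSD11B2 and KLF9. Over the 18 groups without high dose Glycyrrhiza these were -0.01 and -0.39. For TSC22D3 and SGK1 r was 0.73 over 19 groups and 0.49 over 18. FKBP5 and PER1 stood at -0.58 and -0.41. The genes of a pair were read from the same libraries, so they share sets and depth, and the values are descriptions with no test.

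Of 10650 genes with a mean of at least 5 CPM, some whose pattern over the 19 group means was most like each member were picked by Pearson's r on log2 levels. For KLF9 they were IGLON5 (0.936), DTX4 (0.912) and ENO2 (0.907). For TSC22D3 they were PTPRH (0.94), ARFGAP3 (0.936) and CREBRF (0.933), and for HSD11B2 SNHG3 (0.867) and GATC (0.809). Without high dose Glycyrrhiza these values were 0.672 to 0.822. PER1 was most like RNF41 (0.893), SCRN1 (0.874) and NAGK (0.856). For SGK1 the nearest were OAS1 (0.89), IRF7 (0.881) and NFKBIZ (0.859), and for FKBP5 ANKRD13B (0.82), TMEM109 (0.793) and POLE2 (0.786).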

How the data were processed

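The 60 libraries were measured by strand-specific, paired-end RNA sequencing. Per the submitters' processing notes, the reads were handled with FastQC 0.11.9, Trim Galore 0.6.5, STAR 2.7.3a and RSEM 1.3.3 on hg38. Which gene annotation they counted on: not given in the sources used here. The authors deposited 1 table of RSEM expected counts for 60675 genes, and 7.7% to 9.78% of a library's values were not whole, so they were rounded. Another 213 columns of that table belong to samples not analysed here and were not used. Gene positions and exon lengths come from GENCODE 29. All 182 entries of the gene lists were matched.

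Counts were fitted with edgeR 4.0.16 (R 4.3.3, limma 3.58.1), by the quasi-likelihood test with Benjamini-Hochberg adjustment over all 16445 genes that passed filterByExpr, and an adjusted p below 0.05 was a call. The fit held 57 libraries in 19 groups of 3, with 38 residual degrees of freedom and 43 contrasts. TMM factors were 0.956 to 1.031. Angelica, with 1 library a dose, stayed out of the fit. CPM are scaled with the TMM factors. On simulated data for high against low dose of Glycyrrhiza, run on 16218 genes with 200 changed, 56% of genes changed by 0.25 on the log2 scale were recovered, 82% at 0.5, 98% at 0.75 and 100% at 1, and 10 unchanged genes were among 178 calls. The changed genes were drawn above a floor of mean CPM, and the spread followed the trend over level, not each gene's own. Fewer genes were changed than the 4095 called in the data, so these rates may not hold for all tested genes. Alternatives were DESeq2 1.42.0, RLE factors, no filter on low counts, a replicate block, the mitochondrial share as a covariate, the contrast's libraries alone, and each library left out in turn. Leaving out 3 libraries that stood apart on a principal component was chosen after seeing the data.

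Replicates of a group differed by more than sampling noise, and none was counted as a repeat. The members and lists were chosen with earlier results of these data known. Genes named from a list are the 3 largest called changes in each direction between high and low dose of Glycyrrhiza, or a selection of them. The genes named as most like a member are among the 3 with the highest Pearson's r over group means. A few genes that these rules pick are not reported here.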

Additional observations from a re-analysis of the deposited data

Results flagged for a closer look

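The dose change with Glycyrrhiza (high against low dose, log2) differed from that of another extract in 24 tests of the difference itself, all of which share the Glycyrrhiza libraries. Against Palmul-tang, where 15.1% of all genes were called, the difference was 0.81 for TSC22D3, 0.66 for KLF9, 0.24 for SGK1 and -0.66 for HSD11B2. The KLF9 difference was lost without low dose Palmul-tang library 1 (adjusted p = 0.0701).

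Against Sibjeondaebo-tang (14.8% called) it was 0.78 for TSC22D3, 0.61 for KLF9, 0.3 for SGK1 and -0.42 for HSD11B2. The HSD11B2 difference was lost with DESeq2 (adjusted p = 0.0541), and without library 1 or 2 of either Sibjeondaebo-tang dose, high dose Glycyrrhiza library 2 or 3 or low dose Glycyrrhiza library 2 (0.0536 to 0.172). The KLF9 difference was lost without library 3 of either Sibjeondaebo-tang dose or library 2 of either Glycyrrhiza dose (0.0533 to 0.0808).

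Against Poria (14.9% called) it was 0.68 for TSC22D3, 0.66 for KLF9, 0.33 for PER1 and -0.54 for HSD11B2. The PER1 difference was lost in 10 of the 12 refits that each leave out a library of that comparison (0.0597 to 0.253).

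Against Atractylodes (13.2% called) it was 0.64 for TSC22D3, 0.58 for KLF9, 0.36 for PER1, -0.29 for FKBP5 and -0.72 for HSD11B2. The KLF9 difference was lost without any 1 of the 3 high dose Atractylodes libraries, low dose Atractylodes libraries 1 and 3, low dose Glycyrrhiza libraries 1 and 2 or high dose Glycyrrhiza library 2 (0.0547 to 0.126). The PER1 difference was lost without low dose Atractylodes library 1 or 2, high dose Atractylodes library 2, high dose Glycyrrhiza library 2 or low dose Glycyrrhiza library 2 or 3 (0.0552 to 0.0777).

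Against Ginseng (12.9% called) it was 0.61 for TSC22D3 and -0.51 for HSD11B2. Against the mean of the 5 other extracts (21.5% called) it was 0.7 for TSC22D3, 0.59 for KLF9, 0.3 for PER1, 0.21 for SGK1 and -0.57 for HSD11B2. Library by library exceptions for these comparisons stand with the results above.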

How the results depend on the processing

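Between high and low dose of Glycyrrhiza, and against vehicle, 5 of the 6 tested genes were called under each of the 7 alternatives other than leaving out single libraries. Leaving out 1 library at a time gave 3 to 5 and 4 to 5 calls. High against medium dose gave 3 to 5 calls when 1 library was left out, the mean of the 5 other extracts 4 to 6, and Ginseng as the comparison 1 to 3. For the other extracts these refits gave 0 to 1 calls for Atractylodes (high against low dose, and against vehicle), Ginseng and Poria (against vehicle) and Sibjeondaebo-tang (high against low dose), and 1 to 2 for Sibjeondaebo-tang against vehicle. The receptor chaperones gave 3 to 7 calls, and 4 with no filter on low counts. With the mitochondrial share as a covariate 1 member was called for Palmul-tang (high against low dose, and against vehicle) and for Sibjeondaebo-tang (high against low dose), and 0 for Ginseng against vehicle. With the contrast's libraries alone Ginseng against vehicle also gave 0, and Sibjeondaebo-tang against vehicle gave 1, as it did with no filter and with DESeq2. DESeq2 called 1 for Sibjeondaebo-tang high against low dose, and leaving out the 3 libraries apart on a principal component gave 1 for Palmul-tang. No result reversed. The cause of these changes was not tested. Of 40 named list genes 31 kept their call under every alternative. Between medium and low dose of Glycyrrhiza all genes called were 0 in the main fit, 129 with no filter and 2 with DESeq2. With 54 to 139 counts per library for KLF9 and 100 to 248 for HSD11B2, small changes of these genes may not be detectable at this depth.

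Same-numbered libraries did not deviate together: the correlations of their deviations ran from -0.111 to 0.189, and no comparison had all 3 above 0.1, so the numbers were not taken as pairs. With the replicate block 1 member was called for Palmul-tang and for Sibjeondaebo-tang (high against low dose) and for Atractylodes against vehicle, each 0 without it, and 6 against the mean of the 5 other extracts.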
